A study of Mus musculus with 2 samples.

Results

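The spots described here are the collagen-rich dermal spots of 4 mouse skin sections, 206 of 3175 spots over tissue. They were chosen by measured counts. A spot was taken if it held at least 200 and below 1000 unique molecular identifiers (UMIs, the counted transcript molecules), if at least 1% of them came from *Col1a1*, *Col1a2*, *Col3a1*, *Col5a2* and *Col6a3*, if these collagen UMIs were no fewer than those of 6 macrophage genes, and if 6 skeletal muscle genes made up less than 3%. The rule kept 80 of 984 spots in the section treated with 9-cis HPR, 37 of 787 in the section treated with retinol, 47 of 939 in the section with ultraviolet radiation (UVR) alone and 42 of 465 in the control section.

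The sections came from female SKH-1 mice, a hairless strain, 10 to 12 weeks old. They were measured on Visium slides, which capture transcripts on a grid of barcoded spots, with a probe-based kit. The groups were UVR plus 0.03% 9-cis HPR, a retinoid, UVR plus 0.1% retinol (vitamin A), UVR alone, and control skin. Each group was 1 section, so no test between groups was possible and no p-value is given. The HPR and retinol sections shared one capture area and the UVR and control sections the other, so in the comparisons of HPR or retinol with UVR alone the treatment and the capture area cannot be told apart. The labels name an upper and a lower section on each area; the section at smaller image rows was taken as the upper one. Rows of the spot grid run the other way, and going by them would exchange HPR with retinol and UVR with control.

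Dermal fibroblasts secrete fibrillar collagens, chiefly types I and III, which assemble into fibres together with type V collagen, small proteoglycans and elastic fibres. Ultraviolet light is known to raise collagen-degrading proteases in skin and to lower new collagen synthesis, and topical retinoids act through nuclear retinoic acid receptors on both epidermis and dermis. A Visium spot covers several cells, so a level here is that of a small region. Fewer cells of a type and less RNA per cell cannot be told apart in it.

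The spots lay mostly inside the tissue and next to each other. Only 1 of 80 spots in HPR skin and 2 of 37 in retinol skin had a grid neighbour without tissue. In UVR skin it was 1 of 47 and in control skin 8 of 42, or 19.0%. Most other spots of the same depth also lay inside the tissue. Of these, 16.1%, 21.8%, 14.1% and 27.5% had a neighbour without tissue in HPR, retinol, UVR and control skin. Of the neighbours, up to 6 per spot, 34.0% were themselves collagen-rich in the HPR section, 27.3% in the retinol section, 33.5% in the UVR section and 24.5% in the control section. Around other spots of the same depth these shares were 7.10%, 5.15%, 7.58% and 10.0%, in the same order of sections. A collagen-rich neighbour was present for 69 of 80 spots in HPR skin, 26 of 37 in retinol skin, 38 of 47 in UVR skin and 30 of 42 in control skin. The groups they formed were uneven: the largest joined 15 spots in HPR skin, 13 in retinol skin, 23 in UVR skin and 16 in control skin.

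**Figure D1:**
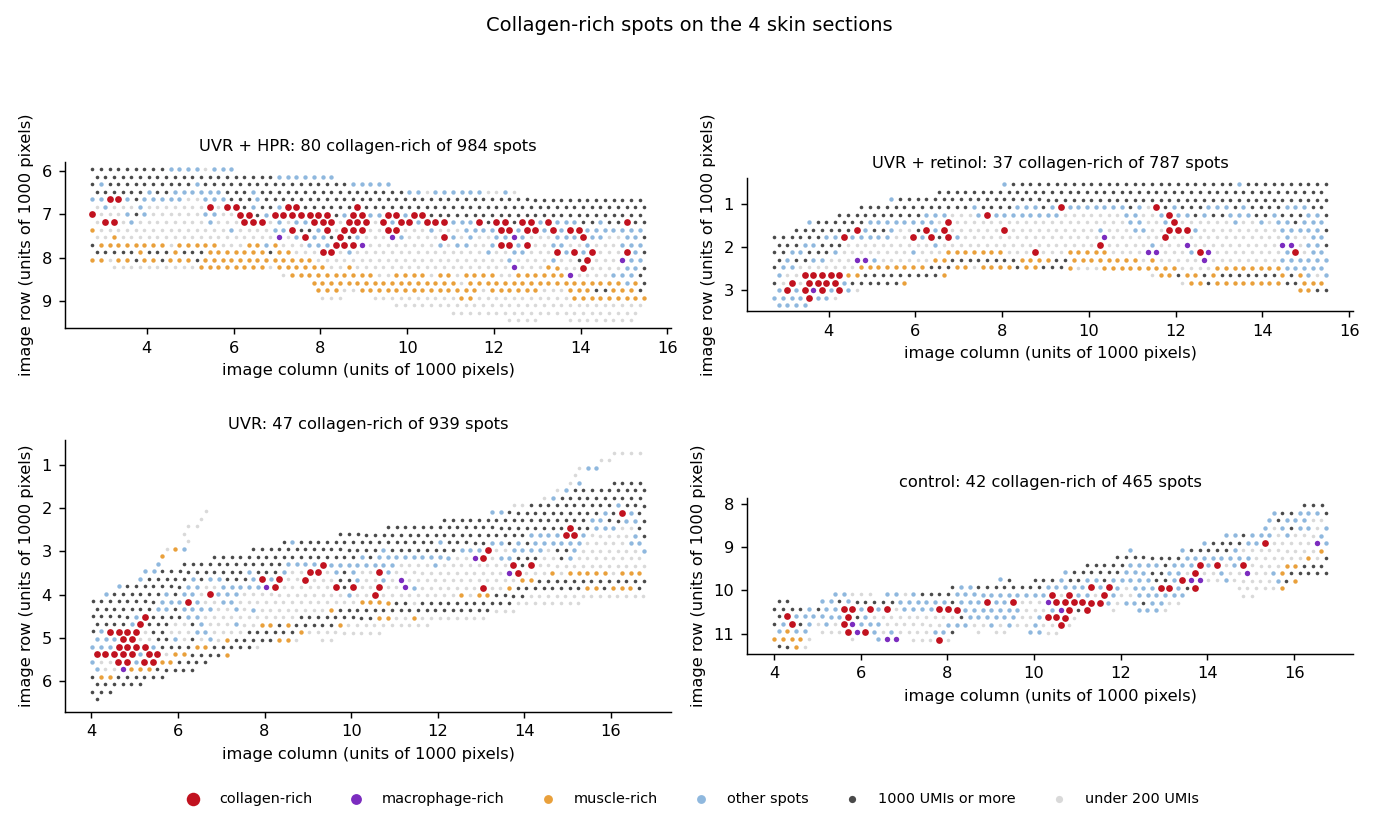
Positions of all spots over tissue in the 4 sections, by image column and row in units of 1000 pixels, coloured by kind of spot. Red points are the 80 collagen-rich spots of the HPR section, 37 of the retinol section, 47 of the UVR section and 42 of the control section; in the UVR section a group of 23 lies at the left end.

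The median distance to the nearest spot with at least 10% keratinocyte UMIs was 4 grid steps in HPR skin, 6 in retinol skin, 4 in UVR skin and 3 in control skin, against 7, 7.50, 3 and 2 steps for other spots of the same depth in the HPR, retinol, UVR and control sections. To the nearest spot with at least 200 UMIs and at least 3% muscle UMIs it was 5 steps in HPR skin, 4 in retinol skin, 4 in UVR skin and 18.5 in control skin, where 25 spots were of this kind, with 192, 134 and 169 in the HPR, retinol and UVR sections. For the other spots, muscle spots themselves included, it was 0, 3, 4 and 13.5 steps in the order HPR, retinol, UVR and control, so a long distance to muscle was not particular to the collagen-rich spots of control skin. The left side of the image, split at the median column of each section, held 45 of the 80 spots in HPR skin, 27 of 37 in retinol skin, 35 of 47 in UVR skin and 26 of 42 in control skin.

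The spots were shallow. Their UMIs summed to 33217 in HPR skin, 13718 in retinol skin, 18804 in UVR skin and 14231 in control skin, and the median spot held 369, 316, 321 and 287 UMIs in that order. Levels are given as CPM, these sums scaled to a total of 1000000 UMIs, so that 1 UMI was worth 30.1 CPM in HPR skin, 72.9 in retinol skin, 53.2 in UVR skin and 70.3 in control skin. Intervals are exact 95% intervals and cover counting error only, not the variation between animals.

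The collagen genes that chose the spots are given as a description. They made up 1.75% of UMIs in HPR skin, 1.79% in retinol skin, 1.93% in UVR skin and 1.55% in control skin. This rested on few molecules per spot, with a median of 7 collagen UMIs in HPR skin, 6 in retinol skin, 6 in UVR skin and 4 in control skin, and a minimum of 3 in each section. Just outside the threshold, 72 spots that met the other conditions held 0.8% to 1.0% collagen, and just inside it 43 spots held 1.0% to 1.2%.

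*Col1a2*, which encodes the second chain of type I collagen, gave 55.1% of the collagen UMIs. It stood at 9965 CPM in HPR skin, 10351 in retinol skin, 10317 in UVR skin and 7730 in control skin. *Col3a1*, the type III collagen chain of pliable dermis, stood at 4516, 4957, 5052 and 3513 CPM in the HPR, retinol, UVR and control sections. *Col1a1*, the partner chain of *Col1a2*, did not follow it across the sections, with 1445 CPM in HPR skin, 1458 in retinol skin, 2925 in UVR skin and 3373 in control skin. *Col1a1* had no UMI in 49 of the 80 HPR spots, 21 of 37 retinol spots, 21 of 47 UVR spots and 20 of 42 control spots. The collagen-rich spots held only part of each section's UMIs of the 5 collagen genes: 22.5% in HPR skin, 14.8% in retinol skin, 23.9% in UVR skin and 30.4% in control skin. Spots with 1000 UMIs or more, which the rule leaves out, held 44.6%, 44.9%, 45.7% and 20.4% in the same order.

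The dermal label was set against genes that the rule did not use. *Bgn*, the small proteoglycan biglycan that was given as a marker of these spots, was barely counted: 3 UMIs in HPR skin, 1 in retinol skin, 7 in UVR skin and 5 in control skin. That is 90.3, 72.9, 372 and 351 CPM, against 51.1, 69.4, 124 and 183 CPM in other spots of the same depth, a difference not detectable at this depth in any of the 4 sections, where the intervals of the ratio include 1. *Dcn*, the proteoglycan decorin, had 18 UMIs over all 206 spots.

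Besides *Bgn*, 4 other genes of dermal cells and matrix are given as a description, since they were picked for standing above the other spots. *Col5a1* (chr2:27886381-28039510 in GRCm38), a chain of the type V collagen that regulates the width of collagen fibrils, stood at 3583 CPM in HPR skin, 2551 in retinol skin, 2553 in UVR skin and 1897 in control skin, against 1016, 998, 891 and 678 CPM in other spots of the same depth. The ratio was 3.53, 2.56, 2.87 and 2.80 in these 4 sections. *Selenop*, which encodes a secreted selenium carrier, had 843 CPM in HPR skin, 1239 in retinol skin, 1276 in UVR skin and 1265 in control skin, against 281, 356, 435 and 441 CPM in the other spots. *Twist1*, a transcription factor of mesenchymal cells, was at 2.57, 3.25, 2.00 and 1.87 times the other spots, and *Loxl1*, a lysyl oxidase-like enzyme that crosslinks elastin, at 4.32, 1.87, 2.32 and 1.72 times, in the order HPR, retinol, UVR and control. The *Twist1* intervals of UVR and control skin and the *Loxl1* intervals of retinol and control skin include 1. Dermal genes did not all stand apart in HPR skin: *Tnxb*, the matrix gene of tenascin-X, was at 0.848 (0.367 to 1.74) times the other spots there, with 2.49, 1.68 and 1.55 in the retinol, UVR and control sections.

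The other spots of the same depth included muscle-rich spots, which were 170 in HPR skin, 87 in retinol skin, 50 in UVR skin and 13 in control skin. Against the other spots that were not muscle-rich, a comparison chosen after seeing the data, *Col5a1* was at 2.35 (1.79 to 3.09), 1.98 (1.30 to 2.96), 2.32 (1.58 to 3.36) and 2.69 (1.64 to 4.29) in the HPR, retinol, UVR and control sections. *Selenop* was at 2.43, 3.13, 3.76 and 2.73 in that order, with no interval that includes 1. *Twist1* in HPR skin was at 1.37 (0.777 to 2.36). *Loxl1* was at 2.63 (1.52 to 4.61) in HPR skin and 1.29 (0.431 to 3.24) in retinol skin. In UVR skin it was at 1.88 (0.915 to 3.70) and in control skin at 1.79 (0.515 to 5.04), so only the HPR interval leaves out 1.

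Of the genes outside the rule, 258 had at least 50 UMIs in the collagen-rich spots. Among them 88 were higher than in other spots of the same depth in all 4 sections and 15 were lower in all 4. These other spots include the muscle-rich spots, and the counts are not given without them. The 15 genes that most stably marked the spots were picked by their ratio to the other spots, so their ratios are a description. They also held *Lix1l*, *Basp1*, *Sh2b2*, *Npr1*, *Crlf2*, *Marcks* and *Hsp90b1*, and a set of genes known from blood-derived cells or lysosomes. *Cyba*, a subunit of the phagocyte NADPH oxidase, was 5.35-fold higher in retinol skin, 4.16-fold in UVR skin and 3.14-fold in control skin. In HPR skin *Cyba* was at 2.06 (0.717 to 5.29), an interval that includes 1. *Was*, the actin regulator of blood cells, was 1.97-, 4.71-, 3.51- and 3.52-fold higher in HPR, retinol, UVR and control skin. *Psap*, the precursor of lysosomal saposins, was 2.05-, 4.43-, 3.22- and 3.13-fold higher in the same order. Without the muscle-rich spots, HPR skin showed no detectable difference for these 3 genes, with *Cyba* at 1.39 (0.451 to 4.06), *Was* at 1.02 (0.546 to 1.86) and *Psap* at 1.15 (0.708 to 1.84), while in the other 3 sections each stayed at 2.72 or more. At the other end was *Lor*, the cornified envelope protein loricrin. It was at 0.431, 0.153, 0.375 and 0.416 times the other spots in HPR, retinol, UVR and control skin. Without the muscle-rich spots *Lor* was at 0.207, 0.102, 0.296 and 0.392 in that order. *Slc25a4*, also among the 15 lower genes, was at 0.0724 in HPR skin and 0.0790 in retinol skin. Without the muscle-rich spots *Slc25a4* was at 1.08 (0.637 to 1.80) and 0.955 (0.434 to 1.90) there.

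**Figure D2:**
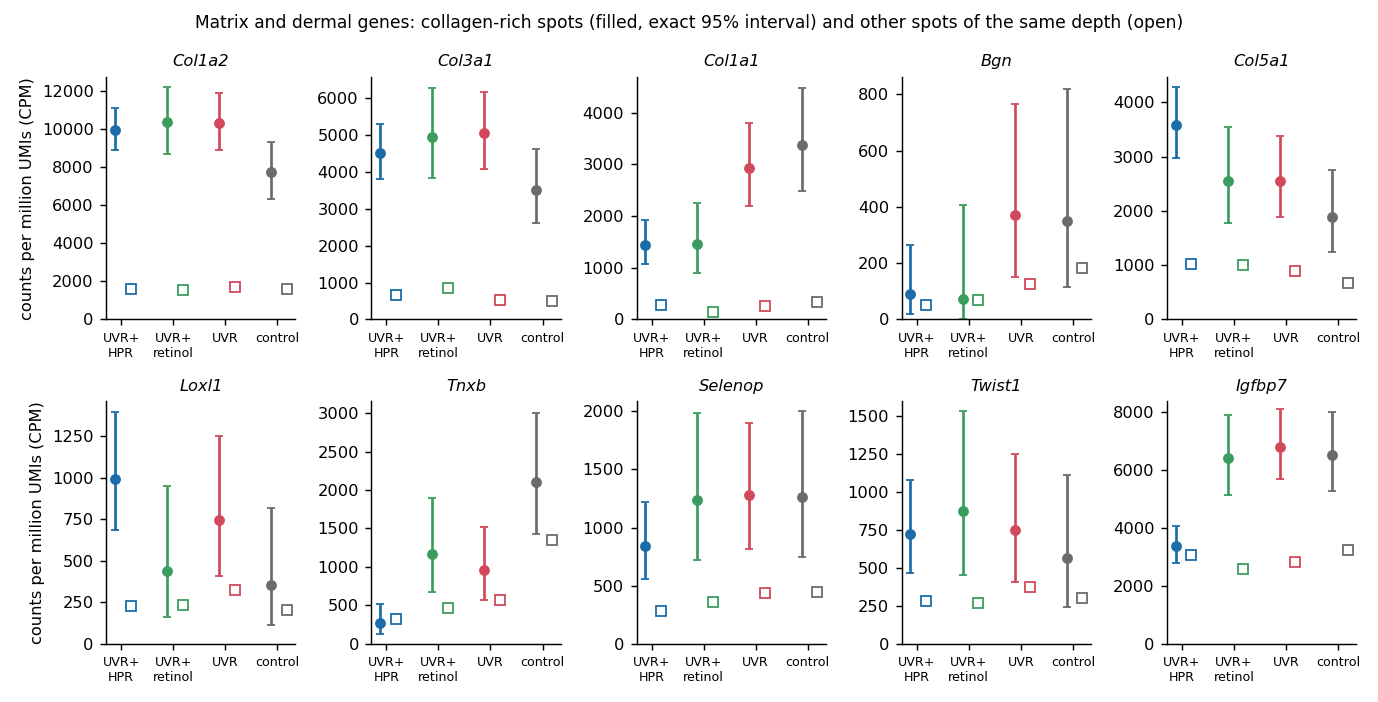
Level of 10 genes in CPM (vertical axes from 0), in collagen-rich spots (filled circles with exact 95% counting intervals) and in the other spots of at least 200 and below 1000 UMIs (open squares), for the HPR, retinol, UVR and control sections from left to right. *Col1a2*, *Col3a1* and *Col1a1* belong to the rule; *Col5a1* and *Selenop* lie above the other spots in each of the 4 sections, while *Tnxb* in HPR skin (271 CPM) does not.

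The 22 other macrophage markers summed to 3763 CPM in HPR skin, 6998 in retinol skin, 5584 in UVR skin and 7449 in control skin, which was 2.13, 3.49, 2.16 and 2.26 times the other spots of the same depth, or 1.32, 2.49, 1.91 and 2.16 times those that were not muscle-rich. The fibroblast markers, led by *Igfbp7*, summed to 5148, 8966, 10264 and 10259 CPM in HPR, retinol, UVR and control skin, or 1.21, 2.33, 2.21 and 2.11 times the other spots. Without the muscle-rich spots the fibroblast ratio was 1.17 (0.960 to 1.41) in HPR skin, 1.70 in retinol skin, 1.93 in UVR skin and 2.08 in control skin. These markers were not particular to the collagen-rich spots. In HPR, retinol, UVR and control skin the macrophage-rich spots held 5613, 5909, 13710 and 10023 CPM of fibroblast markers. These values came from 7, 11, 6 and 10 spots, and lay above the collagen-rich spots in HPR and UVR skin only. Spots with fewer than 200 UMIs held 7692, 9835, 8108 and 7938 CPM in the same order, above the collagen-rich spots in HPR and retinol skin only.

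Keratinocyte transcripts were present in every section, at 26402 CPM in HPR skin, 9841 in retinol skin, 22814 in UVR skin and 31481 in control skin. That was 1.09, 0.439, 0.497 and 0.574 times the other spots, and 0.542, 0.298, 0.382 and 0.545 times those that were not muscle-rich, in the same order of sections. In HPR skin the basal list was at 1.79 and the suprabasal list at 0.508 times all other spots, and at 0.894 and 0.244 times the spots that were not muscle-rich. T cell, mast cell, neutrophil, Schwann, melanocyte and hair follicle markers had at most 9 UMIs per section, and no comparison is given for them.

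Between the sections, the matrix genes outside the rule were compared first, as 71 genes in 4 lists: other collagens, proteoglycans, elastic fibre genes and matricellular genes, which are matrix proteins that act on cells more than on structure. Their sum stood at 9122 CPM in HPR skin, 11518 in retinol skin, 11753 in UVR skin and 10611 in control skin. UVR over control was 1.11 (0.897 to 1.37) and retinol over UVR 0.980 (0.794 to 1.21), both with intervals that include 1. HPR over UVR was 0.776 (0.650 to 0.927) and HPR over retinol 0.792 (0.651 to 0.966). The HPR over UVR ratio was 0.589 on the right side of the image and 0.940 on the left side. The right side of UVR skin held 12 spots, and the difference between the sides was not tested. The HPR over UVR ratio was 0.946 when only spots with at least 2% collagen were kept.

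Within that sum the matrix genes differed in direction. *Col5a1* alone gave 27.5% of it and was at its highest in HPR skin. Its own ratio was 1.40 (0.996 to 2.01) for HPR over UVR and 1.40 (0.956 to 2.11) for HPR over retinol. Both intervals include 1. Without *Col5a1* the sum gave HPR over UVR at 0.602 (0.487 to 0.745). Leaving out a gene whose ratio lies above that of the sum must lower the ratio of the sum. *Tnxb*, which encodes the matricellular protein tenascin-X that spaces collagen fibres, had 9 UMIs in HPR skin, 16 in retinol skin, 18 in UVR skin and 30 in control skin, or 271, 1166, 957 and 2108 CPM. UVR over control was 0.454 (0.238 to 0.841) and HPR over UVR 0.283 (0.112 to 0.663) for *Tnxb*. The matrix sum without *Tnxb* gave UVR over control at 1.27 (1.01 to 1.60) and HPR over retinol at 0.855 (0.697 to 1.05). The first interval then leaves out 1, and the second includes it. The elastic fibre genes summed to 2228 CPM in HPR skin, 2624 in retinol skin, 2765 in UVR skin and 1335 in control skin, with UVR over control at 2.07 (1.20 to 3.71). *Loxl1*, with 33, 6, 14 and 5 UMIs in the HPR, retinol, UVR and control sections, and *Eln*, the gene of elastin itself, with 5, 12, 8 and 2 UMIs, did not share one order of sections.

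**Figure D3:**
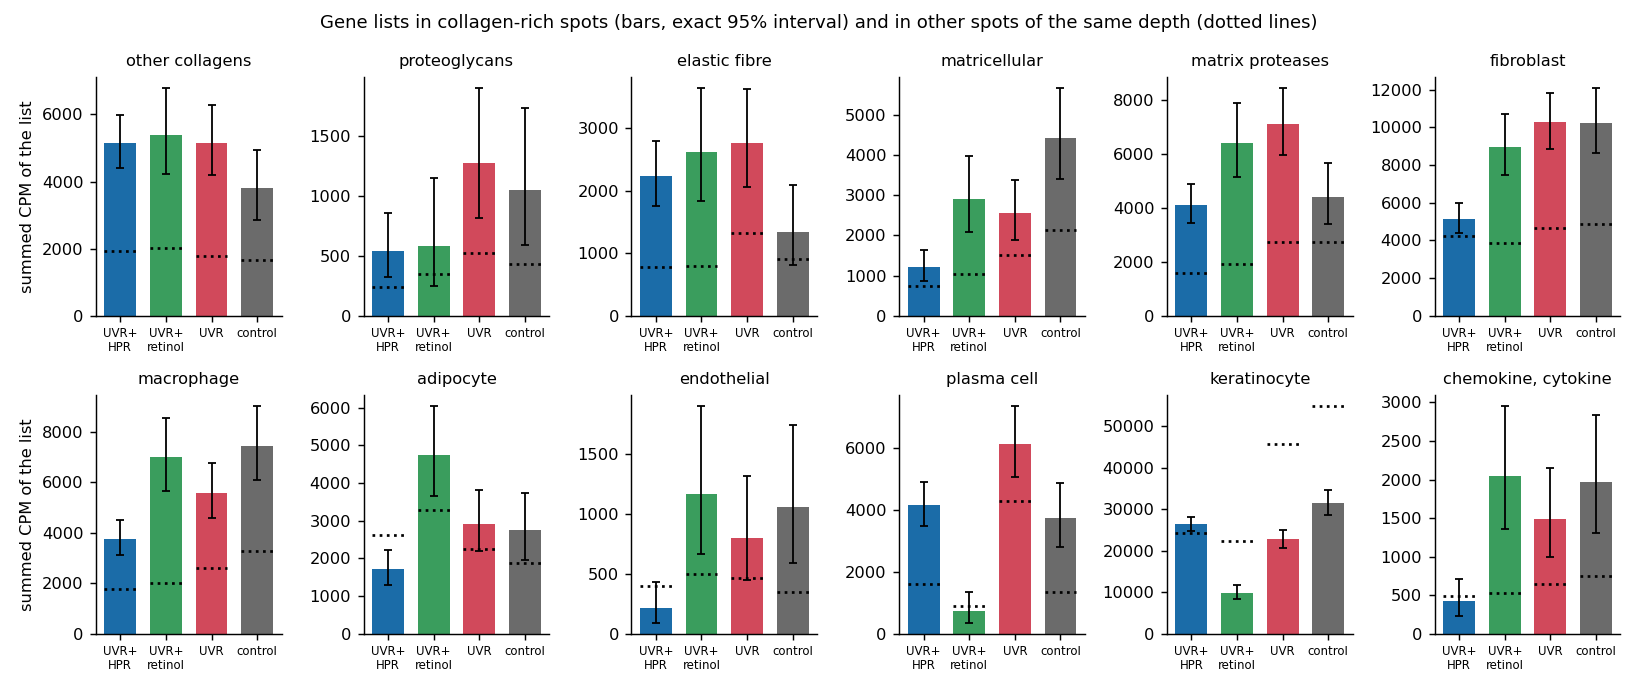
Summed CPM of 12 gene lists in collagen-rich spots (bars from 0, exact 95% counting intervals) and in other spots of the same depth (dotted lines), for the HPR, retinol, UVR and control sections from left to right. The HPR bars for fibroblast (5148 CPM), matricellular (1204 CPM) and endothelial genes (211 CPM) are the lowest of the 4 sections, and the retinol bars for keratinocyte (9841 CPM) and plasma cell genes (729 CPM) are the lowest in theirs.

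For UVR over control, 79 genes outside the rule had at least 50 UMIs over both sections, and the median log2 ratio was 0.057. Of these, 3.80% were higher in UVR skin by 2-fold or more, which is 3 genes, and 6.33% lower by as much, which is 5. The higher ones were *Ctsb*, *Ctsl* and *Syngr1*; cathepsins B and L are lysosomal proteases that can also degrade matrix. *Ctsb* (cathepsin B, chr14:63122462-63145923) had 3244 CPM in UVR skin and 1476 CPM in control skin, a ratio of 2.20 (1.32 to 3.80). *Ctsl* (cathepsin L) had 2393 CPM in UVR skin and 1054 CPM in control skin, a ratio of 2.27 (1.24 to 4.39). *Syngr1*, a membrane protein best known from synaptic vesicles, had 2127 CPM in UVR skin and 843 CPM in control skin, a ratio of 2.52 (1.30 to 5.28).

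The *Ctsb* UMIs of UVR skin came from 30 of 47 spots, and 11 of the 61 UMIs lay in 1 spot. The list of 22 matrix proteases, of which 8 had no UMI, summed to 7126 CPM in UVR skin and 4427 CPM in control skin, a ratio of 1.61 (1.18 to 2.21). *Ctsb* and *Ctsl* gave 106 of its 134 UMIs in UVR skin and 36 of 63 in control skin, and the other genes of the list, taken without them after seeing the data, had 28 and 27 UMIs, a ratio of 0.785 (0.446 to 1.38). Macrophages are also rich in cathepsins. The 6 macrophage genes of the rule stood at 4839 CPM in UVR skin and 2600 CPM in control skin. The rule holds them to no more than the collagen UMIs of a spot, and *Ctss*, *Ctsk* and *Ctsz* among them are themselves cathepsins. The other 22 macrophage markers stood at 5584 CPM in UVR skin and 7449 CPM in control skin. Among those 22 markers *Cd74* gave 15 of 105 UMIs in UVR skin and 35 of 106 in control skin. *Ctsd* (cathepsin D), also among them, went the other way, with UVR over control at 2.35 (1.12 to 5.36). The part of macrophages in the cathepsin difference was not tested.

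The genes lower in UVR skin were *Lor*, *Crct1*, *Cd74*, *Tnk2* and *Pawr*. *Lor* had 1383 CPM in UVR skin and 9135 CPM in control skin, or 6.61-fold lower (4.31 to 10.5), and its ratio of 0.151 became 0.230 among spots with under 5% keratinocyte UMIs. *Lor* is itself among the keratinocyte genes that this filter counts. The filter kept 42 of 47 spots in UVR skin and 34 of 42 in control skin. *Crct1*, a cysteine-rich gene of the cornified envelope, was 2.74-fold lower (1.69 to 4.57). *Cd74*, the invariant chain of MHC class II, had 798 CPM in UVR skin and 2459 CPM in control skin, 3.08-fold lower (1.64 to 6.08). *Tnk2*, a tyrosine kinase, was 2.85-fold lower (1.62 to 5.20) and *Pawr*, a regulator of apoptosis, 2.01-fold lower (1.13 to 3.67), though on the right side of the image *Pawr* was higher in UVR skin, at a ratio of 1.13. The keratinocyte lists together stood at 22814 CPM in UVR skin and 31481 CPM in control skin, with the suprabasal list 4.51-fold lower (3.41 to 6.05) and the basal list at a ratio of 1.28 (1.06 to 1.54). In control skin 26 of the 130 *Lor* UMIs lay in 1 spot, and spots with 1000 UMIs or more held 14029 CPM of *Lor* in UVR skin and 61349 CPM in control skin. The part of epidermal transcripts in the *Lor* and *Crct1* differences was not tested.

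For retinol over UVR, 79 genes could be compared, with a median log2 ratio of -0.001. In retinol skin 1.27% of them, which is *Igfbp5* alone, were at least 2-fold higher and 6.33%, or 5 genes, at least 2-fold lower. *Igfbp5*, a binding protein of insulin-like growth factors, had 3280 CPM in retinol skin and 1330 CPM in UVR skin, a ratio of 2.47 (1.48 to 4.20). On the right side of the image, where 10 spots of retinol skin and 12 of UVR skin lay, its ratio was 0.686 (0.0653 to 4.19). *Cst3*, the cathepsin inhibitor cystatin C, was 1.80-fold higher (1.18 to 2.75), which is below the 2-fold limit.

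Among the lower genes was *Igha* (chr12:113256204-113260236), the constant region of immunoglobulin A. It had 656 CPM in retinol skin and 5265 CPM in UVR skin, 8.02-fold lower (4.06 to 18.1). The 9 UMIs of retinol skin came from 4 spots and the 99 UMIs of UVR skin from 24 of 47 spots. Outside the collagen-rich spots, other spots of the same depth showed the same direction, with 807 CPM in retinol skin and 3843 CPM in UVR skin. On the right side of the image the *Igha* ratio was 0.343 (0.00725 to 3.06), where few spots lay. If the upper sections are read by the spot grid, retinol over UVR becomes 1.11 (0.793 to 1.58) for *Igha*. *Ctsb* was 2.23-fold lower (1.32 to 3.89), while *Ctsl* had 3135 CPM in retinol skin and 2393 CPM in UVR skin, a ratio of 1.31 (0.842 to 2.04).

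*Mt1*, a metal-binding metallothionein that responds to stress, had 1750 CPM in retinol skin and 4042 CPM in UVR skin, 2.31-fold lower (1.44 to 3.82). *Crk*, an adaptor protein, was 2.07-fold lower (1.21 to 3.70). *Krt5*, the keratin of basal keratinocytes, was 2.53-fold lower (1.94 to 3.34), and its ratio of 0.395 moved to 0.615 among spots with under 5% keratinocyte UMIs. That filter counts *Krt5* itself, which gave 48.4% of the keratinocyte UMIs over the 4 sections. It kept 37 of 37 spots in retinol skin and 42 of 47 in UVR skin, so a move towards 1 was built in. The keratinocyte lists together were 2.32-fold lower (1.91 to 2.83).

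For HPR over UVR, 163 genes could be compared, because the HPR spots held more UMIs, and the median log2 ratio was 0.179. At least 2-fold higher in HPR skin were 9.20% of them, or 15 genes, and at least 2-fold lower 6.13%, or 10 genes. With ratios centred on their median, 9 were higher and 11 lower. *Jup*, the desmosome protein plakoglobin, had 36939 CPM in HPR skin and 12604 CPM in UVR skin, a ratio of 2.93 (2.55 to 3.38), and was counted in all 80 HPR spots. The other genes highest by their interval were *Nccrp1* at 4.38 (2.55 to 8.07), *Pou3f1*, a POU transcription factor, at 3.65 (1.92 to 7.65), *Pxdc1* at 3.51 (1.79 to 7.68), *Pawr* at 3.18 (1.99 to 5.33) and *Ndufb6*, a subunit of mitochondrial complex I, at 2.36 (1.78 to 3.17).

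Some ratios differed between the sides of the image. On the left *Nccrp1* was at 2.06 and on the right at 31.8, and *Pawr* was at 1.68 on the right. The right side of UVR skin held 12 spots, and all of UVR skin had 15 *Nccrp1* UMIs. Whether these ratios were uneven across the section was not tested. *Jup*, *Nccrp1* and *Pou3f1* were higher still in the deep spots of the same section. The collagen-rich spots of HPR skin held 36939, 3492 and 2137 CPM of these genes, against 100479, 24377 and 4043 CPM in its spots with 1000 UMIs or more. The keratinocyte lists together stood at 26402 CPM in HPR skin and 22814 CPM in UVR skin, a ratio of 1.16 (1.03 to 1.30), and among spots with under 5% keratinocyte UMIs the *Jup* ratio was 3.30 (2.81 to 3.90). That filter kept 73 of 80 spots in HPR skin and 42 of 47 in UVR skin, and the part of epidermal transcripts in these ratios was not tested. *Htra1* (chr7:130936203-130985658), a secreted serine protease that cleaves matrix proteins, had 1836 CPM in HPR skin and 638 CPM in UVR skin, a ratio of 2.88 (1.53 to 5.87), with 502 CPM in the deep spots of HPR skin and 377 CPM in its other spots of the same depth. The *Htra1* UMIs of HPR skin came from 29 of 80 spots, and 10 of 61 lay in 1 spot. Its ratio was 1.91 (0.986 to 3.98) among spots with under 5% keratinocyte UMIs and 1.67 (0.579 to 5.42) among spots with at least 2% collagen.

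The 6 lowest genes in HPR skin, ranked by the interval bound nearer 1, were *Ctsb*, *Mt1*, *Syngr1*, *Vat1*, *Ctsl* and *Igfbp7*. By ratio alone, *Ctsd* at 0.438, *Psap* at 0.459, *Lpgat1* and *Picalm* were lower than *Igfbp7* at 0.495, with wider intervals. *Lpgat1* had 632 CPM in HPR skin and 1649 CPM in UVR skin, and *Picalm* 903 and 1914 CPM. *Ctsb* had 632 CPM in HPR skin and 3244 CPM in UVR skin, 5.13-fold lower (3.08 to 8.87), with a ratio of 0.201 on the left and 0.194 on the right side of the image. *Ctsl* had 783 CPM in HPR skin and 2393 CPM in UVR skin, 3.06-fold lower (1.85 to 5.16), and *Mt1* had 903 and 4042 CPM, 4.48-fold lower (2.90 to 7.08). *Syngr1* was 3.72-fold lower (2.10 to 6.80) and *Vat1*, a membrane protein of vesicles and mitochondria, 3.19-fold lower (1.94 to 5.37). *Igfbp7*, a secreted protein of fibroblasts and vessels, had 3372 CPM in HPR skin and 6807 CPM in UVR skin, 2.02-fold lower (1.55 to 2.63).

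Among the lists, the matrix proteases held genes of both directions in HPR skin, and their sum was 1.73-fold lower than in UVR skin (1.35 to 2.21). Without *Ctsb* and *Ctsl*, left out after seeing the data, it was 1.82-fold higher (1.18 to 2.89), with 90 UMIs in HPR skin and 28 in UVR skin. *Htra1* alone gave 61 of these 90 UMIs and 12 of these 28, so the higher sum rested largely on that gene. The fibroblast list was 1.99-fold lower (1.61 to 2.46), with *Igfbp7* as 66.5% of its UMIs over the 4 sections. The macrophage genes of the rule, which also limits them, stood at 1957 CPM in HPR skin and 4839 CPM in UVR skin. The other macrophage markers were 1.48-fold lower in HPR skin (1.13 to 1.94). Endothelial markers had 7 UMIs in HPR skin and 15 in UVR skin, 3.79-fold lower (1.45 to 11.0), and chemokine and cytokine genes 14 and 28 UMIs, 3.53-fold lower (1.80 to 7.26). The part of macrophages and of vessels in the differences of single genes was not tested.

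The retinoid genes themselves were sparse. The 22 genes, of which 9 had no UMI, summed to 2168 CPM in HPR skin, 1239 in retinol skin, 1489 in UVR skin and 2740 in control skin. *Rarg*, the retinoic acid receptor that predominates in skin, had 33 UMIs in HPR skin, 3 in retinol skin, 4 in UVR skin and 8 in control skin, or 993, 219, 213 and 562 CPM. HPR over UVR was 4.67 (1.66 to 18.1) for *Rarg*; with 37 UMIs over both sections it was below the minimum for a call. In deep spots *Rarg* had 1170 CPM in HPR skin, 1203 in retinol skin, 668 in UVR skin and 973 in control skin.

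HPR and retinol are related retinoids that were given at different doses, 0.03% and 0.1%, so dose and compound cannot be told apart between their sections; the sections shared a capture area. Of 149 genes compared, 10.7%, or 16 genes, were at least 2-fold higher in HPR skin and 5.37%, or 8 genes, at least 2-fold lower, with a median log2 ratio of 0.148. With ratios centred on their median, 13 were higher and 16 lower.

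The 6 highest genes, ranked by the interval bound nearer 1, were *Igha*, the junction gene *Jup*, *Nccrp1* and 3 epidermal genes, *Sprr1b*, *Lor* and *Krt5*. By ratio alone *Pawr*, at 2.87 (1.72 to 5.09), was higher than *Krt5*, as were *Limk2*, *Crct1* and *Uck2*. *Igha* had 3823 CPM in HPR skin and 656 CPM in retinol skin, a ratio of 5.83 (2.97 to 13.0). *Lor* had 2800 CPM in HPR skin and 583 CPM in retinol skin, a ratio of 4.80 (2.34 to 11.4), *Sprr1b*, a cornified envelope protein of stressed epidermis, was at 5.37 (2.36 to 15.1) and *Krt5* at 2.52 (1.96 to 3.28). *Jup* was at 3.45 (2.90 to 4.12) and *Nccrp1* at 2.99 (1.77 to 5.41). The keratinocyte lists together were 2.68-fold higher in HPR skin (2.24 to 3.24), and their part in these ratios was not tested. When spots were chosen after thinning each to 200 UMIs, *Krt5* was at 1.35, *Lor* at 2.08 and *Jup* at 1.73.

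The 6 lowest genes in HPR skin by the same ranking were *Ctsl*, *Fth1*, *Igfbp5*, *Psap*, *Vat1* and *Acacb*. *Ctsl* had 783 CPM in HPR skin and 3135 CPM in retinol skin, a ratio of 0.250 (0.147 to 0.416), with a ratio of 0.110 on the right side of the image. *Psap* was 3.07-fold lower (1.85 to 5.13), with a ratio of 0.627 on that side. *Fth1*, the ferritin heavy chain, had 12494 CPM in HPR skin and 29815 CPM in retinol skin, 2.39-fold lower (2.08 to 2.74), and *Vat1* was 2.89-fold lower (1.66 to 5.06). *Igfbp5* had 1084 CPM in HPR skin and 3280 CPM in retinol skin, 3.03-fold lower (1.91 to 4.83), with a ratio of 1.38 on the right side of the image. *Acacb*, an acetyl-CoA carboxylase of fatty acid metabolism, was at 0.400 (0.236 to 0.677), but 21 of its 32 UMIs in retinol skin lay in 1 spot, as did 5 of 31 in HPR skin. Without the spot with most *Acacb* UMIs in each section, a choice made after seeing the data, the ratio was 0.939 (0.448 to 2.11), and among spots with at least 2% collagen it was 1.47. Adipocyte markers were 2.76-fold lower in HPR skin (1.90 to 4.01), with *Cfd*, the adipocyte protease adipsin, at 331 CPM in HPR skin and 1021 CPM in retinol skin.

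**Figure D4:**
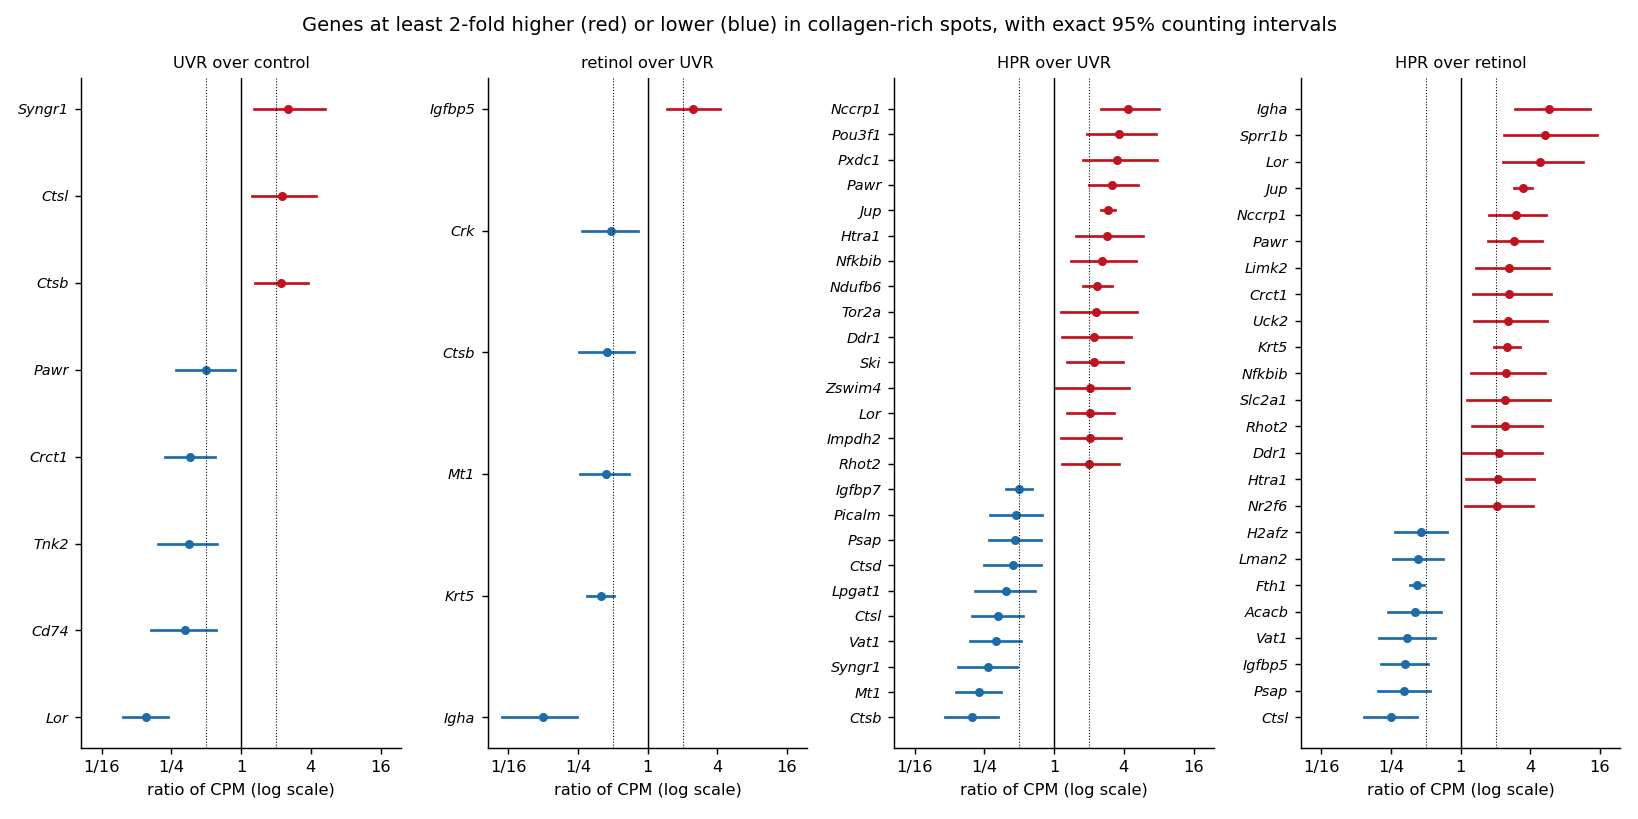
Ratio of CPM (horizontal log axis, dotted lines at 2-fold) in collagen-rich spots for each gene outside the rule that was at least 2-fold higher (red) or lower (blue), with exact 95% counting intervals, in the 4 comparisons. *Igha* lies at 8.02-fold lower for retinol over UVR, *Ctsb* at 5.13-fold lower for HPR over UVR and *Lor* at 6.61-fold lower for UVR over control; with sections read by the spot grid these ratios become 1.11, 0.988 and 6.61.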

How the data were processed

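The deposited counts are whole UMIs for each gene in each spot over tissue. The submitters' processing notes list Space Ranger 2.0.0, Seurat 4.1.0 and the mm10 build. Besides these counts, only spot positions were used. Both matrices hold 19465 features. The capture areas shared 430 barcodes by design of the slide, none of them by 2 collagen-rich spots. Spots were summed per section and divided by the total to give CPM; no test was made. Ratios carry no pseudocount and have exact Clopper-Pearson 95% intervals, based on how the UMIs divide between both sections. A gene was called at 2-fold with at least 50 UMIs over both sections, and genes of the rule were left out.

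The members and gene lists were chosen with earlier results of these data known. Genes named are those of the rule; the 6 highest and 6 lowest per comparison by the interval bound nearer 1; matrix genes with at least 50 UMIs; up to 3 genes per other list; and the 15 genes most stably above other spots. *Dcn*, *Eln*, *Slc25a4*, *Lpgat1*, *Picalm*, *Limk2* and *Uck2* were chosen after their values were seen. Coordinates were looked up by symbol among RefSeq genes of GRCm38.p6, the assembly of mm10. Python 3.11.15, numpy 2.4.6, scipy 1.17.1, pandas 2.3.3 and matplotlib 3.10.9 were used, tested on simulated data. Alternatives changed the reading of upper and lower, collagen share, depth, thinning, keratinocyte content, scaling, image side and UMI minimum.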

Additional observations from a re-analysis of the deposited data

Results flagged for a closer look

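Spots with fewer than 200 UMIs were left out of every comparison, and in both treated sections they held the collagen genes of the rule above the level of the same kind of spot in control skin. In retinol skin 1.33% of their UMIs came from these genes, with 0.762% for control skin, and the ratio was 1.75 (1.42 to 2.17). In HPR skin the share was 1.08%, and the ratio to control was 1.41 (1.15 to 1.75). In UVR skin it was 0.679%, a ratio of 0.891 (0.706 to 1.13). Both treated sections lie on the other capture area than the control section, so treatment and area cannot be told apart.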

How the results depend on the processing

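With 1 section per group and no replicate numbers shared between groups, leaving out a replicate was not possible. No paired analysis was possible because each group has 1 section. Of 562 values for called genes under the alternatives other than the reading by the spot grid, 505 stayed within their counting interval, 52 left it and 5 changed direction: *Pawr* in UVR over control (1.13), *Igfbp5* in retinol over UVR (0.686) and in HPR over retinol (1.38), all on the right side of the image, and *Acacb* (1.47) and *Ddr1* (0.842) in HPR over retinol at 2% collagen. The cause was not tested.

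Reading sections by the spot grid, run for single genes after seeing the data, gave 63 values, of which 7 stayed within their interval, 7 left it and 49 changed direction, with the following ratios. For UVR over control they were *Cd74* 3.08, *Crct1* 2.74, *Ctsb* 0.455, *Ctsl* 0.440, *Lor* 6.61, *Pawr* 2.01, *Syngr1* 0.396 and *Tnk2* 2.85. For retinol over UVR they were *Crk* 1.77, *Igfbp5* 0.701, *Igha* 1.11 and *Krt5* 1.22. For HPR over UVR they were *Ctsd* 1.97, *Ctsl* 2.97, *Impdh2* 0.722, *Jup* 0.474, *Lor* 0.0638, *Lpgat1* 1.10, *Nccrp1* 0.572, *Nfkbib* 0.472, *Pawr* 0.551, *Psap* 1.16, *Rhot2* 0.671, *Syngr1* 1.38 and *Vat1* 1.19. For HPR over retinol they were *Acacb* 2.50, *Crct1* 0.382, *Ctsl* 4.0, *Ddr1* 0.464, *Fth1* 2.39, *H2afz* 2.21, *Htra1* 0.476, *Igfbp5* 3.03, *Igha* 0.172, *Jup* 0.290, *Krt5* 0.397, *Limk2* 0.378, *Lman2* 2.35, *Lor* 0.208, *Nccrp1* 0.334, *Nfkbib* 0.410, *Nr2f6* 0.484, *Pawr* 0.349, *Psap* 3.07, *Rhot2* 0.416, *Slc2a1* 0.412, *Sprr1b* 0.186, *Uck2* 0.391 and *Vat1* 2.89. UVR over control and HPR over retinol are the inverse of the reported ratios by construction, and the sections compared for the others are exchanged too.

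Reading sections by the spot grid gave matrix sums of 1.09 for HPR over UVR and 1.26 for HPR over retinol. It gave 5 higher and 3 lower genes for UVR over control, 15 higher for retinol over UVR, 3 and 6 for HPR over UVR, and 8 and 16 for HPR over retinol. At least 2% collagen left 27 spots in HPR skin, 13 in retinol skin, 20 in UVR skin and 9 in control skin, with matrix sums of 0.852 for UVR over control, 1.37 for retinol over UVR and 0.946 for HPR over UVR. It left 0 lower genes for UVR over control, 0 higher and 2 lower for retinol over UVR, and 5 higher and 0 lower for HPR over each of UVR and retinol, out of 15 to 33 genes compared. Without an upper UMI limit, 33 genes were higher for HPR over UVR and 38 for HPR over retinol. Deeper spots also bring more genes past the UMI minimum, so these counts are not shares. At least 300 UMIs left 50, 24, 27 and 19 spots in HPR, retinol, UVR and control skin, with 1 higher and 2 lower genes for UVR over control, and 6 and 5 lower for HPR over UVR and over retinol. Choice after thinning gave 65 spots in both retinol and control skin, with 6 higher and 10 lower genes for UVR over control, 3 and 3 for retinol over UVR, and 5 lower for HPR over retinol.

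The left side of the image gave a matrix sum of 0.940 for HPR over UVR, 1 lower gene for UVR over control, 2 higher for retinol over UVR, 6 higher and 3 lower for HPR over UVR, and 7 and 3 for HPR over retinol. The right side gave 0.589, 1 lower for UVR over control, 2 lower for retinol over UVR, 6 and 5 for HPR over UVR, and 6 and 3 for HPR over retinol. The mean of spot CPM gave 2 higher genes for retinol over UVR and 6 lower for HPR over UVR. A minimum of 100 UMIs gave 0 higher and 1 lower for UVR over control, 0 and 3 for retinol over UVR, 5 and 2 for HPR over UVR, and 6 and 1 for HPR over retinol; a minimum of 20 gave 30 and 25, 18 and 20, 66 and 37, and 68 and 34. Centring gave 9 higher for HPR over UVR and 16 lower for HPR over retinol. Settings that change the spots or the UMI minimum also change the number of genes compared, which is not given for each. A larger or smaller count of genes under them therefore does not show more or less difference.

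Depth limits these results: 3 UMIs correspond to 90.3 CPM in HPR skin, 219 in retinol skin, 160 in UVR skin and 211 in control skin; no proteoglycan gene reached 50 UMIs.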
